A study of Homo sapiens with 6 samples.

Results

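The transcripts examined were those of 10 enzymes that make serine, move its carbon through folate and pass sulfur to cysteine, with asparagine synthetase beside them, in BT-549 cells silenced for IRF1. The members were selected on earlier values of the same comparison (fold change and CPM of IRF1shRNA against control) and taken by gene symbol: PHGDH, PSAT1, PSPH, SHMT1, SHMT2, MTHFD2, MTHFD1L, CTH, CBS and ASNS. All 10 were found among the 37887 symbols of the table. BT-549 is a human cell line of triple-negative breast cancer, and IRF1 is a transcription factor of the interferon response. RNA-seq was run on 3 control samples, given 0.1% DMSO and titled as carrying a control shRNA, and on 3 IRF1shRNA samples, given 500 ng/ml doxycycline. The series text instead describes a single line with a doxycycline-inducible IRF1 shRNA, so the vector of the controls is uncertain. Doxycycline was given to the IRF1shRNA samples alone, and its effects and those of the hairpin cannot be told apart. If the controls are a separate line, differences between the lines cannot be told apart from silencing either.

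Serine is built from a glycolytic intermediate by PHGDH, PSAT1 and PSPH in turn. The serine hydroxymethyltransferases SHMT1, in the cytosol, and SHMT2, in mitochondria, split it into glycine and a carbon unit carried by folate. In mitochondria MTHFD2 oxidises that unit and MTHFD1L releases it as formate, which the cytosol uses for purines and thymidylate. CBS and CTH join serine to homocysteine and release cysteine, the precursor of glutathione. ASNS makes asparagine from aspartate and glutamine. Many of these genes are known targets of ATF4, the transcription factor of the amino acid response, and PHGDH is known for its high expression in a share of triple-negative breast cancers.

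The total count ranged from 55143808, in IRF1shRNA replicate 2, to 160436234. Levels are given as CPM, the count relative to the library total after scaling by the TMM method. The control samples held 45.3, 48.1 and 51.5 CPM of IRF1 and the IRF1shRNA samples 13.8, 14.9 and 14.6 CPM, each in the order of the replicate numbers used throughout. Markers of the identity of the line moved with the groups. Of 14, 13 were tested by edgeR and 9 fell at an adjusted p under 0.05, where 26.4% of all genes tested did. The mesenchymal marker VIM fell from 888 to 945 CPM in control to 593 to 658 CPM in IRF1shRNA samples (edgeR adjusted p 3.10e-08), with FN1 at 79.0% and CD44 at 82.8% of control. The keratins were low and fell further, KRT18 to 46.1% of control and KRT8 from 1.52 to 0.441 CPM. KRT14 fell from 0.765 to 0.0773 CPM and KRT5 from 0.270 to 0.0242 CPM, both near 0. The epithelial markers CDH1, at 99.5% of control, and EPCAM, at 0.158 CPM or less, did not pass (edgeR adjusted p 0.985 and 0.357). CDH2 was at 102% (edgeR adjusted p 0.674) and the oestrogen receptor ESR1 at 0.144 CPM or less. Of 10 markers of other cell types, 9 stayed under 3 CPM in every sample, with a summed level of 4.87 to 5.39 CPM in control and 3.98 to 4.77 CPM in IRF1shRNA samples, and CD3E was at 0 in every control. The sum held opposite changes, since CD14 rose from 1.09 to 2.22 CPM (edgeR adjusted p 1.43e-05) while ACTA2 fell to 43.9% and DCN to 54.5% of control (edgeR adjusted p 8.14e-06 and 0.00428). The tenth marker, COL1A1, was at 1001 to 1244 CPM. The part of these shifts in the enzyme values was not tested. Cells were grown in triplicate, with no further word on how separate the cultures were, so errors and p-values measure the spread between these samples, which may be technical.

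All 3 enzymes of serine synthesis and both serine hydroxymethyltransferases were lower in IRF1shRNA samples, while MTHFD2, CTH and CBS were higher, CBS with a call that was lost in 8 of 14 alternative fits. MTHFD1L and ASNS overlapped between the groups. All 10 members passed the filter on low counts. At an adjusted p of 0.05 from edgeR, 8 of the 10 were called, 5 lower and 3 higher, where 50.5% of the 18851 genes tested were, 26.4% lower and 24.1% higher. The same 8 had no overlap in CPM between the groups, which was also so for 56.8% of genes tested, 29.5% lower and 27.3% higher. The members were chosen with this comparison already known, so these counts and the values below describe them and nothing is read from the counts. The median log2 fold change of the members was −0.21, beside −0.0024 over all genes tested. In bulk RNA, less RNA per cell cannot be told apart from fewer cells that express a gene.

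**Figure D1:**
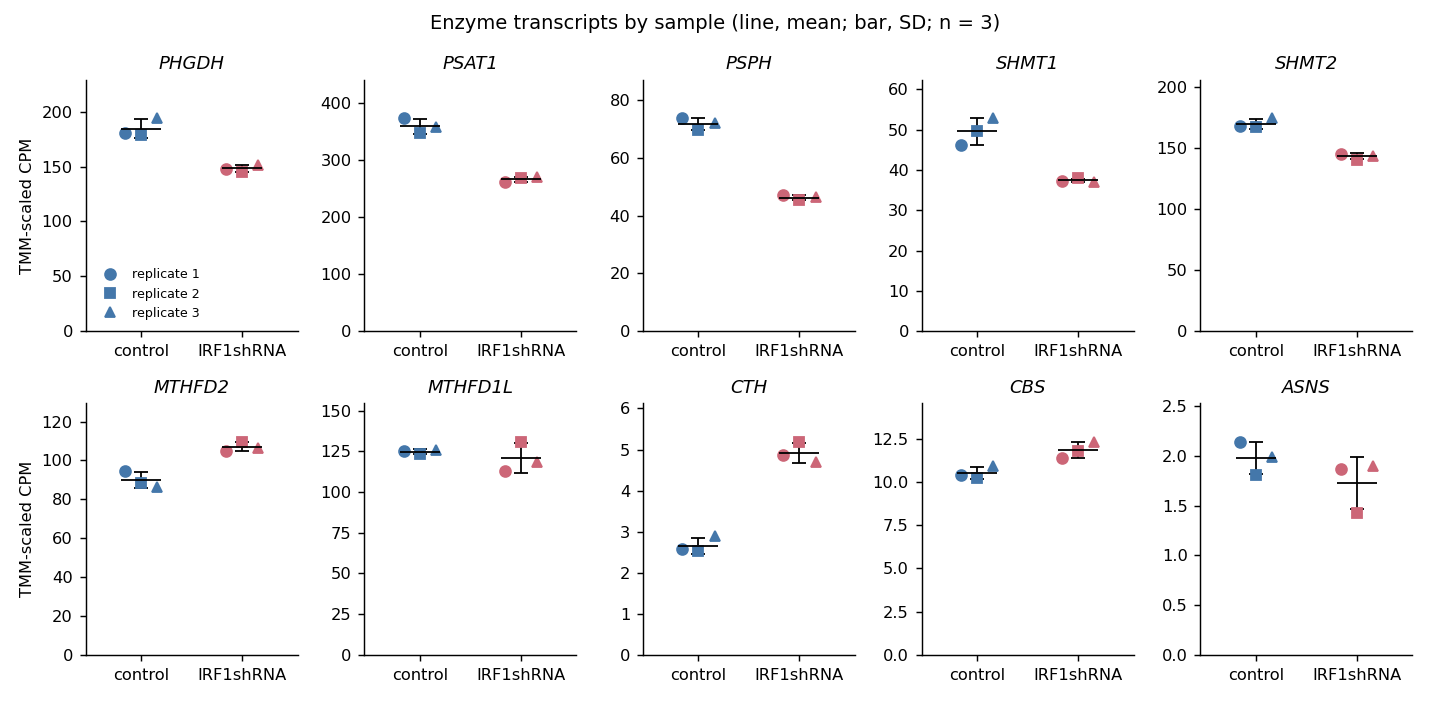
TMM-scaled CPM (vertical axes, from 0) of each enzyme in the 3 control and 3 IRF1shRNA samples, with a marker shape for each replicate number, a line at the mean and a bar for the SD. The groups are apart for 8 enzymes and overlap for MTHFD1L and ASNS.

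PHGDH, the dehydrogenase that commits carbon to serine (chr1:119648411-119744226, plus strand, GRCh38), was at 181, 178 and 194 CPM in control and at 148, 145 and 152 CPM in IRF1shRNA samples. Every IRF1shRNA sample lay below every control. The mean went from 185 ± 8.48 to 148 ± 3.08 CPM (SD, n = 3 each), 80.4% of control, at a log2 fold change of −0.32 ± 0.04 (SE). PSAT1, the aminotransferase of the second step (chr9:78297143-78330093, plus strand), was at 373, 347 and 358 CPM in control and at 261, 268 and 269 CPM in IRF1shRNA samples. The controls again all lay above, and the mean of 359 ± 13.2 CPM went to 266 ± 4.42 CPM, a log2 fold change of −0.43 ± 0.04. PSPH, the phosphatase that completes serine (chr7:56011051-56051604, minus strand), was at 73.8, 69.7 and 72.1 CPM in control and at 47.1, 45.4 and 46.3 CPM in IRF1shRNA samples. PSPH had the largest decrease of the members, to 64.4% of control, with a log2 fold change of −0.63 ± 0.04. Of all genes tested, 10.8% had a lower log2 fold change than PSPH.

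The estimated decreases grew along the route from PHGDH to PSPH. Within each sample, where scaling between libraries has no part, PSPH was at 0.484, 0.464 and 0.441 of the PHGDH level per kilobase of transcript in control, and at 0.378, 0.371 and 0.363 in IRF1shRNA samples. The ratio did not overlap between the groups and was 20% lower in the IRF1shRNA samples. The ratio of PSAT1 to PHGDH was 2.30 ± 0.132 in control and 2.12 ± 0.0492 in IRF1shRNA samples (SD, n = 3 each), and there the groups overlapped.

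SHMT1 (chr17:18327860-18363563, minus strand) was at 46.2, 49.7 and 52.9 CPM in control and at 37.2, 37.9 and 37.1 CPM in IRF1shRNA samples. The IRF1shRNA samples were close together and all below the controls, at 75.4% of their mean and a log2 fold change of −0.41 ± 0.05 (SE). SHMT2 (chr12:57229327-57234935, plus strand) was at 168, 167 and 174 CPM in control and at 145, 140.2 and 144 CPM in IRF1shRNA samples. No IRF1shRNA sample reached a control, and the log2 fold change was −0.25 ± 0.04. SHMT2 exceeded SHMT1 per kilobase by 3.33 ± 0.168 times in control and by 3.71 ± 0.103 times in IRF1shRNA samples. The ratio was 11.5% higher in IRF1shRNA samples, and the 3 ratios of each group did not overlap.

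MTHFD2 was higher where SHMT2, which feeds it, was lower. MTHFD2 (chr2:74198562-74217565, plus strand), the dehydrogenase and cyclohydrolase of the mitochondrial folate route, was at 94.6, 88.5 and 86.4 CPM in control and at 105, 109.6 and 106 CPM in IRF1shRNA samples. All 3 IRF1shRNA samples exceeded all controls, at a mean of 107 ± 2.36 against 89.8 ± 4.22 CPM (SD, n = 3 each) and a log2 fold change of 0.25 ± 0.04 (SE). Its ratio to SHMT2 per kilobase was 0.302 ± 0.0195 in control and 0.426 ± 0.0168 in IRF1shRNA samples. MTHFD1L (chr6:150865549-151101887, plus strand), the formate-releasing synthetase, was at 125, 123 and 126 CPM in control and at 113, 131 and 118 CPM in IRF1shRNA samples. IRF1shRNA replicate 2 lay above the controls and the other 2 below them, and the log2 fold change was −0.05 ± 0.05. Without that library it was −0.10, and under scaling by library size only it turned to 0.0021.

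CTH, the cystathionine gamma-lyase that releases cysteine (chr1:70411218-70439851, plus strand), had the largest change of the 10. It was at 2.57, 2.53 and 2.88 CPM in control and at 4.87, 5.19 and 4.69 CPM in IRF1shRNA samples. The groups were far apart beside their spread, with means of 2.66 ± 0.193 and 4.91 ± 0.253 CPM (SD, n = 3 each), a fold change of 1.84 and a log2 fold change of 0.88 ± 0.10 (SE). Of all genes tested, 94.9% had a lower log2 fold change. CTH was scarce, with 288 to 772 counts a sample. CBS, the synthase before it (chr21:43053191-43076943, minus strand), was at 10.4, 10.2 and 10.9 CPM in control and at 11.4, 11.8 and 12.3 CPM in IRF1shRNA samples. The groups did not overlap but lay close, at a log2 fold change of 0.17 ± 0.07, and CBS passed the threshold in 6 of 14 alternative fits, missing it with DESeq2, with no filter, with the replicate number as a block and in 5 of the 6 fits without 1 library. The ratio of CTH to CBS per kilobase was 0.365 ± 0.0141 in control and 0.601 ± 0.0449 in IRF1shRNA samples.

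ASNS (chr7:97852118-97872542, minus strand) was at 2.14, 1.81 and 1.99 CPM in control and at 1.87, 1.42 and 1.90 CPM in IRF1shRNA samples. The groups overlapped, and the log2 fold change was −0.17 ± 0.14 (SE). IRF1shRNA replicate 2 was the lowest sample, with 79 counts, and without it the value was −0.07.

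**Figure D2:**
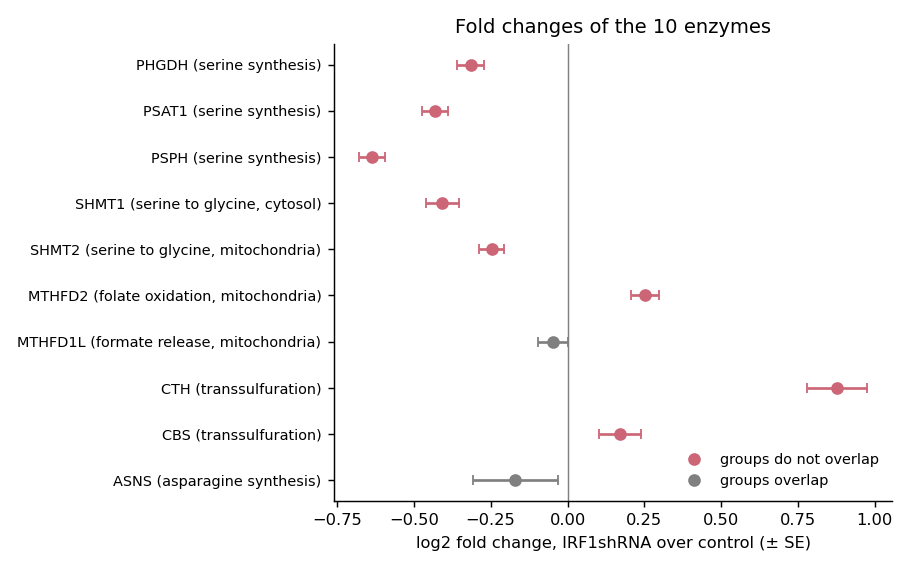
Log2 fold change of IRF1shRNA over control (horizontal axis) of each enzyme, with the SE as a bar and the role of the enzyme beside its name. Serine synthesis and both serine hydroxymethyltransferases lie between −0.63 and −0.25, MTHFD2 at 0.25 and CTH at 0.88.

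The counts of CBS and ASNS are less certain than those of the other members. In GENCODE release 29, 94.6% of the 50-base windows of the main CBS transcript also stand in CBSL, a near-identical copy on chromosome 21. For ASNS, 82% of the windows also stand in AC079781.5, a non-coding transcript model on the same strand that covers 1985 of the 4455 exonic bases of ASNS. For the other members the share was between 0% and 8.36%, the highest in PSPH. How the authors' counting treated reads that fit more than 1 gene is not given in the sources used here, so the levels of CBS and ASNS may be incomplete. CBSL itself was at 0.237 to 0.341 CPM over the 6 samples. The pseudogene ASNSP1 was at 6.06 to 6.51 CPM in control and 3.96 to 4.27 CPM in IRF1shRNA samples (edgeR adjusted p 7.64e-06). For PSPHP1 the control mean was 8.56 ± 0.285 CPM and the IRF1shRNA mean 9.17 ± 1.65 CPM (SD, n = 3 each), with an edgeR adjusted p of 0.527. PSAT1P3 was at 1.40 to 1.90 CPM in control and 0.863 to 1.15 CPM in IRF1shRNA samples (edgeR adjusted p 0.00215), and SHMT1P1 was at 0.389 CPM or less. MTHFD2P6 and PSAT1P1 were at most at 0.0738 CPM, and MTHFD2P1 had no count. On the opposite strand, SLC4A5 overlaps 27.2% of the exonic bases of MTHFD2, and the use of strand in counting is not given in the sources used here.

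Levels of different enzymes were compared per kilobase of the main GENCODE transcript. In control samples PSAT1 was highest, at 164 ± 6.05 CPM per kilobase (SD, n = 3). PHGDH followed at 71.4 ± 3.28, SHMT2 at 66.9 ± 1.60, MTHFD1L at 34.6 ± 0.384 and PSPH at 33.0 ± 0.946 CPM per kilobase. MTHFD2 at 20.2 ± 0.948 and SHMT1 at 20.1 ± 1.35 were the only neighbours in the control order whose samples overlapped. CBS at 4.04 ± 0.139, CTH at 1.48 ± 0.107 and ASNS at 0.840 ± 0.0702 CPM per kilobase closed the order. The counts of CBS and ASNS may be incomplete, so their low places and the size of the ratio of CTH to CBS are uncertain in both groups. In IRF1shRNA samples PSAT1 was still highest, at 122 ± 2.02, and PHGDH and SHMT2 now overlapped, at 57.4 ± 1.19 and 56.3 ± 0.970. MTHFD2 at 24.0 ± 0.529 had passed PSPH at 21.2 ± 0.372 CPM per kilobase, with no overlap of the samples. CTH was at 2.72 ± 0.140, between CBS and ASNS. These places depend on the transcript taken for each gene. With the union of all exons as length, a setting chosen after seeing the data, PHGDH was in place 5 of the control order, SHMT2 in place 2 and PSPH in place 3, while the other 7 kept theirs. In IRF1shRNA samples that length put CTH above CBS, at 2.04 ± 0.105 against 1.74 ± 0.0695 CPM per kilobase with no overlap, so the order of this pair in those samples and the size of their ratio rest on the transcript taken. PHGDH was then in place 6, and MTHFD2 remained above PSPH. The sizes of the other ratios per kilobase rest on the transcript too. In control samples the union length put PSPH at 26.0 CPM per kilobase, above PHGDH at 20.0. The relative change of a ratio between the groups does not depend on the length taken.

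**Figure D3:**
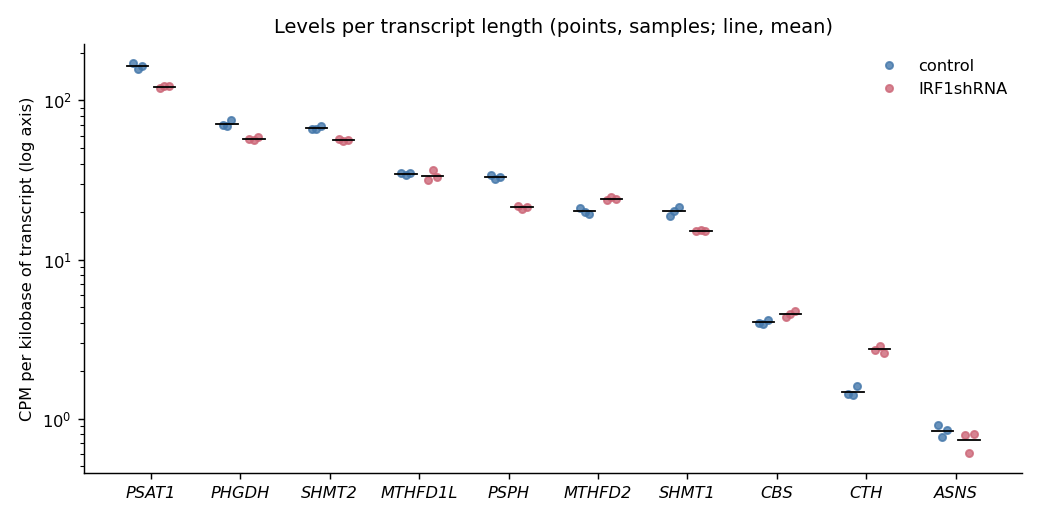
CPM per kilobase of the main transcript (vertical log axis) of the 10 enzymes in the order of their control means, with a point for each sample and a line at the group mean. PSAT1 stands highest in both groups, and MTHFD2 and PSPH change places between them. The counts of CBS and ASNS may be incomplete.

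The replicates were close for most members. The coefficient of variation within a group was 1.11% to 7.52% for 9 members and reached 15.3% for ASNS in IRF1shRNA samples.

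Sequence upstream of the start sites is shown for a pair of members that were lower, PHGDH and PSAT1, and a pair that were higher, MTHFD2 and CTH, so that their promoters can be read against each other. RefSeq windows (GRCh38.p14) were found for 8 of the 10 members, without PSPH and SHMT2. Each line holds the 250 bases before the start, 5′ to 3′ on the strand of the gene, at chr1:119711684-119711933 for PHGDH, chr9:78296875-78297124 for PSAT1, chr2:74198365-74198614 for MTHFD2 and chr1:70411018-70411267 for CTH, all on the plus strand. Capitals mark CCAAT on either strand, the box bound by the factor NF-Y.
PHGDH: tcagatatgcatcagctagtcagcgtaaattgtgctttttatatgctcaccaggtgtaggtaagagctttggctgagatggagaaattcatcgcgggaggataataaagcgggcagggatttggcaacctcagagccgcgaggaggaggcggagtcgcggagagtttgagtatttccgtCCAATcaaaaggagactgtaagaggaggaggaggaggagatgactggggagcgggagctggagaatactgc
PSAT1: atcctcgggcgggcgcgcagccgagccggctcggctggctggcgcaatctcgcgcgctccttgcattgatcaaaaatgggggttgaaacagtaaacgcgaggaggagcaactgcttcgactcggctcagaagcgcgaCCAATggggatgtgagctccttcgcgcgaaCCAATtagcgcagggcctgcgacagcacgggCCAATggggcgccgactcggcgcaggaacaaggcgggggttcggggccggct
MTHFD2: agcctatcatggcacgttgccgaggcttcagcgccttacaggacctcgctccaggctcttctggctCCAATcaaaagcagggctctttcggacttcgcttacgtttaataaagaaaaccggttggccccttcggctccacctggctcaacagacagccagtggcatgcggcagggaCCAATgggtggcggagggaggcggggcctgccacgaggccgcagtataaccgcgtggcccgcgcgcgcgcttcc
CTH: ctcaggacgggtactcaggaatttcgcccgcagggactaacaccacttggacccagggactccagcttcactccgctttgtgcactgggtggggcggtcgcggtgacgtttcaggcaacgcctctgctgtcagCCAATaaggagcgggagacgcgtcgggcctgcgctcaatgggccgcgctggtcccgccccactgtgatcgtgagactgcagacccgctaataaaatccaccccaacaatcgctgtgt

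CCAAT was found upstream of all 4 genes shown, higher and lower alike. This motif was chosen after seeing the sequences, and it stood 71 bases before the start in PHGDH, 113, 83 and 52 bases before it in PSAT1, 184 and 74 bases before it in MTHFD2 and 117 bases before it in CTH. It was in windows of 7 of the 8 members matched and in 10 of their 14 windows around a start, some of which overlap, where 34.6% of all 35116 windows held it. The windows begin 250 bases before the start, and letters outside them were not searched. The element TGATGNAA, bound by ATF4 with a C/EBP partner and searched on both strands, was in windows of ASNS and MTHFD1L and of no other matched member. It was in 4 of the 14 windows, some of which overlap, beside 3.62% of all windows. These matches are shown with the element in capitals, at chr7:97872458-97872487 on the minus strand for ASNS and chr6:150866346-150866375 on the plus strand for MTHFD1L.
ASNS: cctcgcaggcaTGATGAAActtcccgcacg
MTHFD1L: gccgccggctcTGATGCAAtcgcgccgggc

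The members with this element were the pair whose groups overlapped in CPM. PSPH and SHMT2 had no window to search, and the count of ASNS is uncertain. A link between the element and the change of a gene was not tested. The IRF element, GAAA repeated after 2 bases of any kind and searched on both strands, was in windows of 0 of the 8 members and in 3.57% of all windows. The E-box CACGTG, its own reverse complement, was in windows of MTHFD1L alone among the members. These were 3 of the 14 windows, beside 7.26% of all windows. A match is a run of letters and was not tested as a site.

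Genes of the connected pathways were then read from lists written by pathway membership. Of 88 genes listed, 84 passed the filter, of which 24 were higher and 30 lower by edgeR's test, adjusted over all genes tested. The balance of directions turned with the scaling, to 32 higher and 28 lower under library size only and 31 and 28 under upper quartile scaling. Over all genes it turned likewise, from 4548 higher and 4971 lower to 5267 and 4309 under library size only and 5171 and 4413 under upper quartile scaling. With TMM scaling, the 24 higher and 30 lower of 84 stand beside 24.1% higher and 26.4% lower over all genes tested. The counts of each list below are to be read beside the same shares. The median log2 fold change of the 84 was −0.01.

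Among the folate genes, 2 of 14 tested rose and 5 fell. The number that rose was 6 under library size only or upper quartile scaling, 4 with the stricter filter and 1 without control replicate 1. MTHFD2L, the counterpart of MTHFD2 in mitochondria, was at 30.5, 28.4 and 27.2 CPM in control and at 18.1, 17.9 and 17.2 CPM in IRF1shRNA samples, and fell by 0.70 ± 0.06 on the log2 scale (SE; edgeR adjusted p 5.93e-08). The ratio of MTHFD2 to MTHFD2L per kilobase was 1.62 ± 0.0222 in control and 3.12 ± 0.104 in IRF1shRNA samples (SD, n = 3 each). MTHFD1, the cytosolic enzyme of the same steps, fell to 83.1% of control (log2 fold change −0.27 ± 0.04, edgeR adjusted p 6.75e-05), and the ratio of MTHFD1L to it was 0.715 ± 0.0232 and 0.832 ± 0.0340. With the union of all exons as length the order reversed, with MTHFD1L at 24.8 and MTHFD1 at 16.2 CPM per kilobase in control samples. TYMS, which makes thymidylate, fell to 78.7% of control (edgeR adjusted p 0.000169). The median of the list was 0.04.

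**Figure D4:**
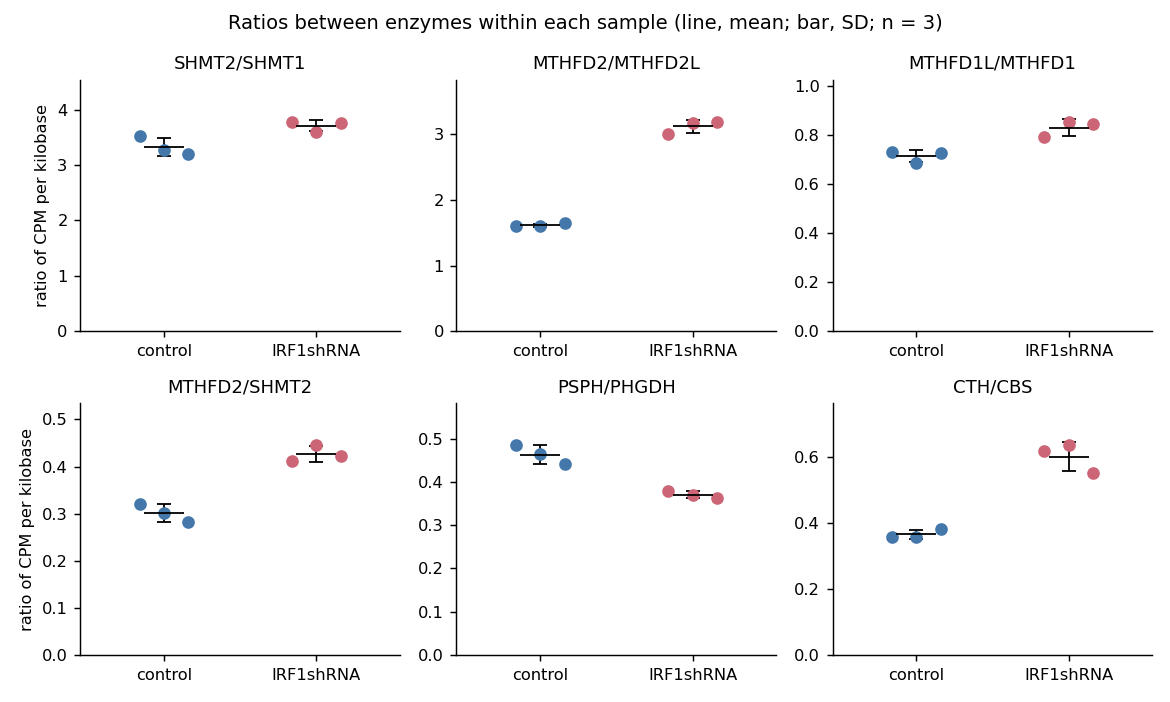
Ratios of CPM per kilobase between pairs of enzymes within each sample (vertical axes, from 0), with the mean as a line and the SD as a bar for the 3 samples of each group. MTHFD2 over MTHFD2L goes from 1.62 to 3.12 and CTH over CBS from 0.365 to 0.601, and none of the 6 ratios shown overlaps between the groups. The count of CBS may be incomplete.

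The methionine cycle, which takes methyl groups from folate and supplies homocysteine to CBS, was split evenly, with 4 of 10 genes tested higher and 4 lower. MAT2A, the synthetase of S-adenosylmethionine, fell from 457 ± 7.66 to 303 ± 16.3 CPM (SD, n = 3 each), and its regulatory partner MAT2B fell from 93.3 ± 1.88 to 57.7 ± 1.06 CPM (edgeR adjusted p 8.54e-09 and 2.97e-10). MTR, the methionine synthase that uses folate, fell to 78.0% of control (edgeR adjusted p 8.78e-07), while MTRR, which reactivates it, rose to 139.7% (edgeR adjusted p 7.98e-08). BHMT2, which remakes methionine without folate, rose from 0.957 ± 0.0843 to 3.35 ± 0.286 CPM (SD, n = 3 each; edgeR adjusted p 3.75e-09). AHCYL1, a relative of the hydrolase that releases homocysteine, rose to 129.5% of control (edgeR adjusted p 5.97e-07). In glycine cleavage, a mitochondrial source of folate-bound carbon, GLDC fell to 81.9% of control (edgeR adjusted p 0.000689) and DLD rose to 112% (0.00540), and the other 2 of 4 genes did not pass.

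Of the genes of cysteine, sulfide and glutathione, 2 of 12 tested rose and 7 fell, with a list median of −0.21. The cystine importer SLC7A11 was at 58.9, 53.3 and 56.4 CPM in control and at 86.3, 83.7 and 88.7 CPM in IRF1shRNA samples (log2 fold change 0.62 ± 0.05, SE; edgeR adjusted p 5.39e-09). GCLM, the modifier subunit of the first enzyme of glutathione synthesis, rose from 115 ± 4.07 to 147 ± 4.27 CPM (edgeR adjusted p 2.01e-06). The mitochondrial sulfide enzymes SQOR and ETHE1 fell to 40.0% and 65.4% of control (edgeR adjusted p 4.07e-05 and 5.72e-05). GGCT, of glutathione breakdown, fell to 80.9% (edgeR adjusted p 0.000405).

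Purine synthesis, which consumes formyl groups from folate, had 4 of 11 genes higher, or 2 without control replicate 2, and 2 lower. ADSL rose to 149.7% of control (edgeR adjusted p 2.95e-06), PFAS to 115% (0.000530) and IMPDH2 to 110.2% (0.0144), a call lost without control replicate 1, control replicate 2 or IRF1shRNA replicate 2 (log2 fold changes of 0.12, 0.14 and 0.12). IMPDH1 fell to 67.3% (edgeR adjusted p 2.13e-07) and ATIC, which takes a formyl group from folate, to 81.5% (8.62e-05). Of the genes of serine transport and breakdown, 3 of 10 rose and 3 fell. SLC38A2, a transporter of small neutral amino acids, fell from 795 ± 37.8 to 585 ± 21.0 CPM (SD, n = 3 each; edgeR adjusted p 4.23e-07). SFXN1, which carries serine into mitochondria, fell to 78.2% of control and its relative SFXN3 to 69.7% (edgeR adjusted p 5.15e-06 and 1.28e-05), whereas SFXN2 rose to 186% (1.71e-08). SRR, which turns serine into its D form, rose to 139.8% (edgeR adjusted p 1.06e-05). SDSL, a relative of serine dehydratase, rose to 118% (0.0258), but its groups overlapped and the call was lost without control replicate 1 (log2 fold change 0.20), control replicate 2 (0.25), IRF1shRNA replicate 1 (0.22) or IRF1shRNA replicate 3 (0.17).

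Around ASNS, 6 of 13 genes of aspartate, asparagine and glutamine rose and 2 fell, with a list median of 0.13. ALDH18A1 and PYCR1, of proline synthesis, rose to 129% and 121% of control (edgeR adjusted p 2.03e-06 and 0.000303). ASRGL1, an asparaginase, rose from 1.33 ± 0.143 to 2.24 ± 0.358 CPM (SD, n = 3 each; edgeR adjusted p 0.000240), and glutamine synthetase GLUL fell to 75.6% of control (8.78e-05). GLUD1 fell to 92.2% (edgeR adjusted p 0.0433), a call lost in 8 of 14 alternatives, among them those without control replicate 1, control replicate 2, IRF1shRNA replicate 1 and IRF1shRNA replicate 3 (log2 fold changes of −0.11, −0.10, −0.10 and −0.09).

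**Figure D5:**
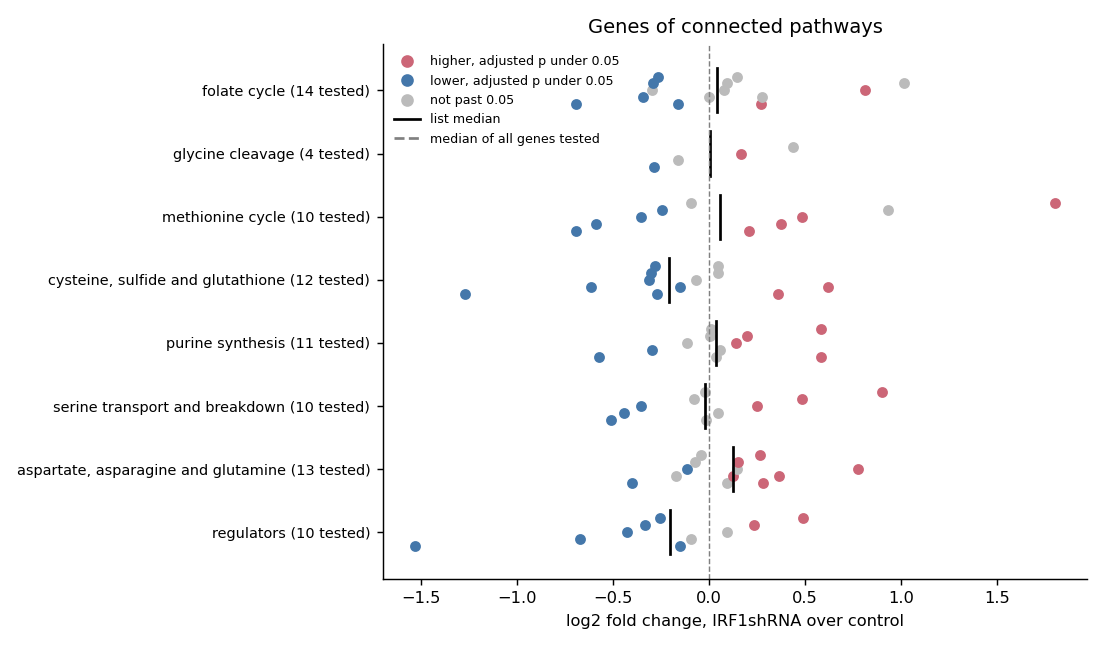
Log2 fold change of IRF1shRNA over control (horizontal axis) of each gene tested in the 8 lists of connected genes, red where higher and blue where lower at an edgeR adjusted p under 0.05 and grey otherwise. Black lines mark list medians, which run from −0.21 to 0.13, and the dashed line the median of all genes tested.

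The list of regulators, which also holds genes that ATF4 activates, moved in both directions. ATF4 itself was at 385, 378 and 396 CPM in control and at 350, 342 and 352 CPM in IRF1shRNA samples, a log2 fold change of −0.15 ± 0.04 (SE; edgeR adjusted p 0.00511). Its relative ATF5 fell from 24.0 ± 2.60 to 8.24 ± 0.865 CPM (SD, n = 3 each; edgeR adjusted p 1.93e-10). DDIT3 and TRIB3, which ATF4 activates under stress, fell to 62.5% and 74.3% of control (edgeR adjusted p 9.93e-08 and 1.16e-06). CEBPB, a partner of ATF4, fell to 79.0% and MYC to 83.6% (edgeR adjusted p 6.66e-05 and 5.55e-05). The kinases upstream of ATF4 went the other way, EIF2AK3 to 141% of control and EIF2AK4 to 118% (edgeR adjusted p 2.18e-06 and 0.000306). CEBPG was at 94.7 and 88.7 CPM on average and did not pass (edgeR adjusted p 0.106), nor did NFE2L2, at 93.1 and 99.4 CPM (0.0933), although NFE2L2 passed under upper quartile scaling, library size only and the stricter filter. In all, 2 of the 10 rose and 6 fell, with a median of −0.20, where 24.1% of all genes tested rose and 26.4% fell. ATF4 protein, which is set largely by translation, was not measured in these files. The enzymes themselves went both ways, and a part of these regulators in their values was not tested.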

How the data were processed

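The deposited table holds unnormalized counts by gene symbol for 3 control and 3 IRF1shRNA samples, from TruSeq Stranded mRNA libraries. The submitters' processing notes name CASAVA 1.8.2, STAR 2.7.9a, featureCounts, DESeq2 1.24.0 and GRCh38.p7; the annotation release and the handling of strand and shared reads are not given in the sources used here. Between 72.1% and 75.2% of counts from 2 to 11 were even, so read mates may have been counted separately, and intervals of counts are not given. Columns were matched to samples by title.

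Counts were tested with edgeR 4.0.16 (R 4.3.3): filterByExpr with a minimum count of 10, TMM scaling, group as the factor, the quasi-likelihood F test and Benjamini-Hochberg adjustment over 18851 genes. The SE is the log2 fold change over the square root of F. The script was tested on simulated data. Coordinates and lengths are from GENCODE release 29, promoters from RefSeq. The members and lists were chosen with earlier results of these data known. Beside the members and IRF1, the rule named the 3 genes with the smallest adjusted p in each direction of each list, all regulators, MTHFD1, MTHFD2L and pseudogene copies with any count; some genes the rule named are not reported here. Alternatives were DESeq2 1.42.0, other scalings and filters, halved counts, a replicate block and leaving out each sample. Same-numbered samples deviated from their group means with correlations of −0.054, 0.044 and 0.073, so the numbers were not taken as pairs.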

Additional observations from a re-analysis of the deposited data

How the results depend on the processing

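Every member kept its direction in all 14 alternatives except MTHFD1L, which turned to 0.0021 under library size only. With library size only, the median log2 fold change over genes tested was 0.049 in place of −0.0024, and the scaling gave PHGDH −0.26, PSAT1 −0.38, PSPH −0.58, SHMT2 −0.20 and CBS 0.22. Between 7 and 8 members passed the threshold in every alternative, and CBS was the one lost. Over all genes, the same alternatives called 3915 to 5267 higher and 4273 to 5096 lower, beside 4548 and 4971 in the main fit. With the replicate block, PSPH was at −0.64 and CTH at 0.88, 7 members passed, and 25 connected genes were higher and 31 lower. The block lost the call of CBS and of no other member. Over the fits without 1 library, connected genes higher ran from 19 to 25 and lower from 28 to 30. Over all genes, those fits called 3915 to 4447 higher and 4413 to 4858 lower, fewer than the main fit in each direction. Of 616 values of named connected genes, 596 kept their side of the threshold, 17 lost a call, 3 gained one and none changed sign. ASNS had the fewest counts of the members, at 79 to 312 a sample, and its count may be incomplete because of sequence shared with other genes.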
